A study of Mus musculus with 8 samples.

Results

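Control knockdown (KD) astrocytes that had received TNF-α were compared with unstimulated ones, called basal here. The comparison took the 4 of 8 RNA-seq libraries whose labels give the genotype as control knockdown, 2 with TNF-α and 2 without, and asked which genes responded to the cytokine where Gstm1 was not targeted. The other 4 libraries, from GSTM1 KD astrocytes, entered the estimate of the spread, the scaling and the filter on low counts, but not the contrast. All cells were primary glia from the cortices of newborn C57BL/6 mice, infected with lentivirus in mixed culture, selected with puromycin, shaken to remove loosely attached cells, and collected as the CD11b-negative fraction. The control KD cells carried a non-silencing short hairpin RNA (shRNA), so both groups had the same virus, selection and sorting, and they differed in TNF-α at 50 ng/ml for 6 h. Each group had 2 replicates, which the study calls biological, without saying whether they came from separate litters. The p-values therefore measure the spread between these libraries only.

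TNF-α is a cytokine that microglia and infiltrating immune cells release in inflamed brain tissue, and astrocytes carry receptors for it. Binding to its receptors assembles a complex of adaptor proteins and ubiquitin ligases that activates the IκB kinase, which marks the IκB inhibitors for destruction and frees NF-κB dimers to enter the nucleus. NF-κB then switches on genes for chemokines, adhesion molecules and its own inhibitors, and interferon regulatory factors extend the programme to antiviral and antigen-presentation genes. Astrocytes that respond in this way are called reactive.

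Astrocyte genes were abundant in all 4 libraries. Gfap, the intermediate filament of astrocytes, measured 996 and 3079.5 CPM at the basal level and 921 and 2895 CPM after TNF-α stimulation, where CPM is the count scaled to library size. Aqp4, the water channel of astrocyte end-feet, measured 653 and 1523 CPM at the basal level and 899.8 and 1988 CPM after TNF-α stimulation. Replicate 2 was higher than replicate 1 in both states for these genes and for Aldh1l1 (90.01 and 257 against 73.7 and 194 CPM, basal against TNF-α with replicate 1 first) and Kcnj10 (349 and 1109 against 223 and 739.8 CPM), so the replicates stood further apart than the states. Microglial genes were low. P2ry12 had 0 or 1 counts in each library, and Itgam, the gene of CD11b, measured 1.73 and 0.313 CPM at the basal level and 1.51 and 0.361 CPM after TNF-α stimulation. Smooth muscle and fibroblast genes were abundant too. The 9 markers of pericytes and fibroblasts tested, of 12 listed, summed to 8301 and 7209 TPM at the basal level. TPM is abundance per transcript length. After TNF-α they summed to 6863 and 6634 TPM, with most counts in Acta2 and Tagln. The 29 astrocyte identity genes tested summed to 7058 and 12290 TPM at the basal level and to 6689 and 11780 TPM after TNF-α. In replicate 1 the astrocyte sum was the lower in both states, and in replicate 2 the higher. Total expected counts ran from 17349676 to 34434633 over the 8 libraries. They were 34434633 and 26026796 in the basal and 23019519 and 17349676 in the TNF-α libraries of control KD. Both TNF-α libraries were thus shallower than both basal ones.

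Of 15332 genes tested, 403 (2.63%) changed after TNF-α stimulation, 322 higher (2.1%) and 81 lower (0.528%), by edgeR's quasi-likelihood test at an adjusted p of 0.05. The induced genes had a median log2 fold change of 1.49, and 226 of them (70.2%) rose at least 2-fold, 61 at least 8-fold and 18 at least 32-fold. The repressed genes changed less, with a median size of 0.79, 25 of 81 (30.9%) at least 2-fold lower and none 8-fold lower. In TPM, the induced genes together made up 0.905% and 0.892% of all transcripts at the basal level and 2.83% and 3.28% after TNF-α. The repressed genes went from 0.495% and 0.538% to 0.32% and 0.312%. All 403 genes had groups that did not overlap, which was also true of 2488 genes (16.2%) in the upward and 2801 (18.3%) in the downward direction among all those tested. In bulk RNA, fewer cells of a type and less RNA per cell cannot be told apart.

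The counts depended on the libraries, the estimate of spread and the tool. A fit without 1 library leaves a single library in its group, so a call lost there need not mean a smaller change. Each count of list members given further on stands against the 2.1% of all genes tested called higher and the 0.528% called lower. The lists were chosen with earlier results of these data known, so such shares describe the lists and test nothing. The same holds for shares of members whose groups did not overlap. List counts and medians cover tested members only, and genes low at the basal level can pass the filter through their TNF-α libraries. The number of induced genes was 198, 164, 285 and 167 without basal replicate 1, basal replicate 2, TNF-α replicate 1 and TNF-α replicate 2, and the number of repressed genes was 97, 16, 28 and 15. Of the 322 induced genes, 125 were called with any 1 of the 4 libraries left out, and of the 81 repressed genes, 7. On the 4 control KD libraries alone edgeR called 70 and 2 genes, all among the 322 and 81. DESeq2 on 8 libraries called more, 549 and 193, and edgeR without a filter on low counts 756 and 499. With the replicate number as a block edgeR called 652 and 336, including all 322 and 81. The labels do not say that a number marks a shared culture or day.

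**Figure D1:**
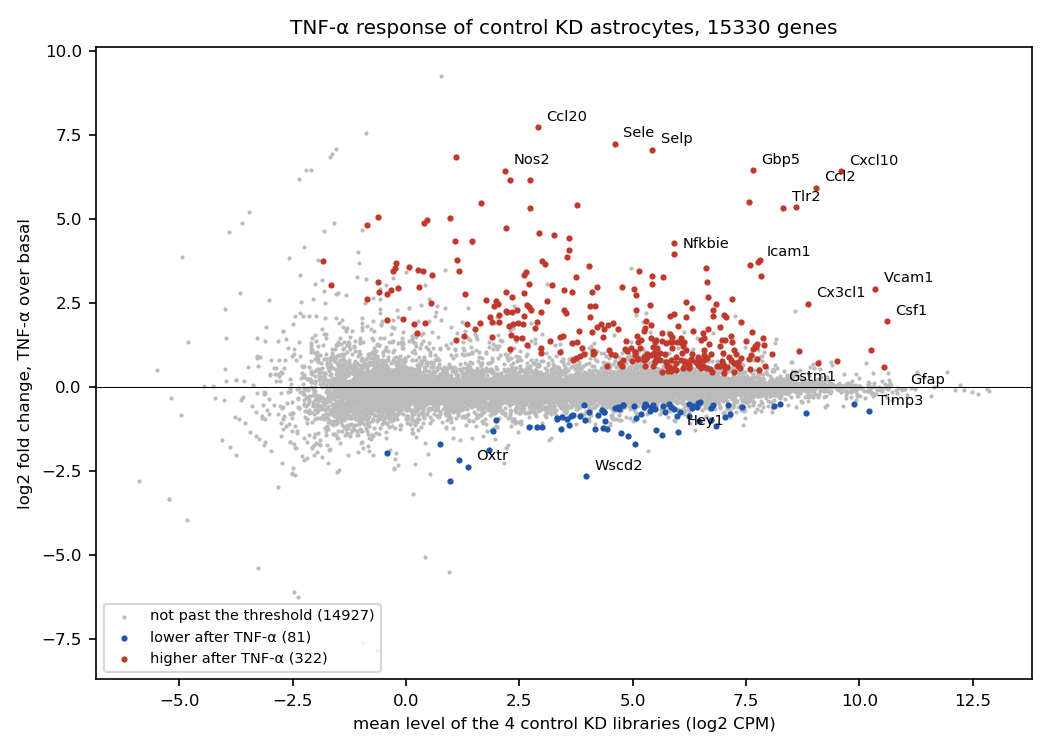
Response of each gene to TNF-α in control KD astrocytes: the horizontal axis is the mean level of the 4 libraries in log2 CPM, the vertical axis the fitted log2 fold change of TNF-α over basal, for the 15330 tested genes with a count in these libraries. The 322 genes past the threshold as higher (red) reach 7.73 and the 81 as lower (blue) reach −2.80, and Gfap and Gstm1 lie close to 0.

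Most genes of NF-κB and its inhibitors rose. Of 11 tested, 8 rose, against 2.1% of all genes tested, and the 3 others (Rel, Nfkbid and Nfkbiz) did not pass, with a median log2 fold change of 1.85 against −0.02 over all genes tested. The count was 7, 6, 9 and 7 without basal replicate 1, basal replicate 2, TNF-α replicate 1 and TNF-α replicate 2. Nfkbie, the gene of the inhibitor IκBε, had the smallest p-value of all 15332 genes. It measured 7.64 and 7.16 CPM at the basal level and 103 and 125 CPM after TNF-α stimulation, a log2 fold change of 3.94 ± 0.13 SE, adjusted p = 0.000121. Nfkbia, which encodes IκBα, the inhibitor resynthesised after each activation, measured 46.7 and 37.03 CPM at the basal level and 394 and 439 CPM after TNF-α stimulation (3.31 ± 0.16 SE, adjusted p = 0.000239). Nfkbib, the third classical inhibitor, rose less (17.3 and 15.1 against 40.4 and 42.9 CPM, 1.36 ± 0.11 SE, adjusted p = 0.00165). For all 3 inhibitors the groups were far apart and the replicates of a group close.

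Among the subunits, the partners of the non-canonical branch had the largest log2 fold changes. Relb measured 28.6 and 23.1 CPM at the basal level and 123 and 142 CPM after TNF-α stimulation (2.35 ± 0.14 SE, adjusted p = 0.000459). Nfkb2, the precursor of p52, measured 50.9 and 49.7 CPM at the basal level and 191 and 238 CPM after TNF-α stimulation (2.09 ± 0.12 SE, adjusted p = 0.00045). Both had TNF-α replicates well above both basal ones. Nfkb1, the precursor of p50, went from 46.2 and 47.9 to 113 and 198 CPM (1.73 ± 0.23 SE, adjusted p = 0.0116), and was not called without basal replicate 1 (0.054) or basal replicate 2 (0.0593), adjusted p in brackets. Rela, the transactivating subunit p65, was the least changed of the called subunits at 1.55-fold (98.7 and 91.6 against 139 and 157 CPM, 0.63 ± 0.09 SE, adjusted p = 0.0146), and was not called without basal replicate 2 (0.0708) or TNF-α replicate 2 (0.0694). Bcl3, an atypical IκB protein of the nucleus, measured 1.81 and 2.15 CPM at the basal level and 9.13 and 12.4 CPM after TNF-α stimulation (2.44 ± 0.26 SE, adjusted p = 0.00609). Nfkbiz, another nuclear IκB, split the TNF-α replicates at 18.9 and 55.6 CPM, over basal values of 11.1 and 9.42 CPM, and did not pass (1.85 ± 0.44 SE, adjusted p = 0.0875).

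The promoters of Nfkbie, Nfkbia, Tnip1, Cxcl10 and Ccl20 are shown as examples from the inhibitor, feedback and chemokine groups. These 5 induced genes were called with each library left out and hold a match to the NF-κB consensus, searched on both strands. Other induced genes, among them Irf1, Nfkb2 and Tnfaip2, also hold a match and are not printed. Still others, among them Icam1, Birc3, Cx3cl1 and Junb, hold none in the promoter searched, and the repressed genes Pdgfc and Srgap3 hold a match. The 5 were picked for the match, so the matches are no result about them. Each is RefSeq's sequence of 250 bases before to 50 after the gene's start, 300 bases on GRCm38.p6, written 5′ to 3′ along the gene, with the bases of every match in capitals and overlapping matches run together.
Nfkbie, chr17:45555450-45555749, plus strand: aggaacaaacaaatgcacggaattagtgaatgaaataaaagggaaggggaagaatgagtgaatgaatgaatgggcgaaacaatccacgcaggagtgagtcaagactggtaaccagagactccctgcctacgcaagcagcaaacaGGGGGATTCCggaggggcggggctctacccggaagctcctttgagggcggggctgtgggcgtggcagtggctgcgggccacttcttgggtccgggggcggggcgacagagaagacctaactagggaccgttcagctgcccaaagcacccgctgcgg
Nfkbia, chr12:55492598-55492897, minus strand: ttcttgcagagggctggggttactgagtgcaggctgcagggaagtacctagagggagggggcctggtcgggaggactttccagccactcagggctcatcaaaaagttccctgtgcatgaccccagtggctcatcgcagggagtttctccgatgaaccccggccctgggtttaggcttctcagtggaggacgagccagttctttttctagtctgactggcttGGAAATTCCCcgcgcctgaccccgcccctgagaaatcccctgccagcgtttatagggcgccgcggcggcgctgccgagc
Tnip1, chr11:54962891-54963190, minus strand: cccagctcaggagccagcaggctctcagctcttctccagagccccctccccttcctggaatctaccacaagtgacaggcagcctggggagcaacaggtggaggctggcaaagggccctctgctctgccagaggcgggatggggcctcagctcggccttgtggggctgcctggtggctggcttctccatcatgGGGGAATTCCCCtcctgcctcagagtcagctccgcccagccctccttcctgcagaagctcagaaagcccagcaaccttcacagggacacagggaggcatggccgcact
Cxcl10, chr5:92348840-92349139, minus strand: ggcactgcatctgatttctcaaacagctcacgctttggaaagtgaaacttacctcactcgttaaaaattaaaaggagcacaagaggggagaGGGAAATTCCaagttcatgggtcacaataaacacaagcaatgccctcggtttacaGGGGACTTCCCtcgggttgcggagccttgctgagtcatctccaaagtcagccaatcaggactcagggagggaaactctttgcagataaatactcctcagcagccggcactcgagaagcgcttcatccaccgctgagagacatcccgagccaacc
Ccl20, chr1:83116516-83116815, plus strand: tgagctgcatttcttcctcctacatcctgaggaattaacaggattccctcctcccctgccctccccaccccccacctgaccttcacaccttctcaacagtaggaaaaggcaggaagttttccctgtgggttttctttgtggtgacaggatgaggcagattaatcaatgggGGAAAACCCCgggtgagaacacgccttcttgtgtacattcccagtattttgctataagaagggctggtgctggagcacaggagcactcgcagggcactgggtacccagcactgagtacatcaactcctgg
The match began 106 bases before the start in Nfkbie, 29 in Nfkbia and 80 in Ccl20. Tnip1 held 3 overlapping matches that began 58, 57 and 56 bases before its start. Cxcl10 held 1 that began 159 bases before and a pair of overlapping ones that began 104 and 103 before. RefSeq gave 14391 promoters for 11232 of the 15332 genes tested. Of these promoters, 10.7% held a match, 5.26% the AP-1 word TGANTCA and 7.14% the interferon-response word GAAANNGAA. For the induced genes RefSeq gave promoters for only 239 of 322, and a share over them is not given. With genes missing from both sets, the shares above describe only the promoters found. A match is a description of the letters, not a bound site.

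Of 23 genes of the TNF receptors and their signalling complex, 3 rose, against 2.1% of all genes tested (3, 3, 3 and 2 without basal replicate 1, basal replicate 2, TNF-α replicate 1 and TNF-α replicate 2), and the median was 0.21. Tnfrsf1a, the main TNF receptor, measured 108 and 136 CPM at the basal level and 103 and 123 CPM after TNF-α stimulation (−0.11 ± 0.14 SE, adjusted p = 0.915). Tnfrsf1b, the second receptor, measured 23.4 and 15.8 CPM at the basal level and 37.2 and 25.7 CPM after TNF-α stimulation (0.68 ± 0.30 SE, adjusted p = 0.415). The kinase genes Ikbkb, Chuk and Ripk1 had log2 fold changes of 0.52, 0.11 and 0.11, none past the threshold. The 3 that rose encode a pair of ubiquitin ligases and the adaptor that recruits them. Birc3, which encodes cIAP2, went from 9.95 and 8.25 to 79.6 and 74.3 CPM (3.08 ± 0.15 SE, adjusted p = 0.000239). Its neighbour Birc2 (cIAP1) was 2.55-fold higher (41.7 and 37.97 against 88.3 and 115 CPM, 1.35 ± 0.14 SE, adjusted p = 0.00497). Traf2, the adaptor, measured 31.3 and 22.9 against 48.9 and 52.9 CPM (0.91 ± 0.16 SE, adjusted p = 0.0291), and was not called without basal replicate 2 (0.0654), TNF-α replicate 1 (0.0745) or TNF-α replicate 2 (0.13).

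Of 16 feedback regulators tested, 5 rose, against 2.1% of all genes tested (5, 4, 5 and 3 without basal replicate 1, basal replicate 2, TNF-α replicate 1 and TNF-α replicate 2), with a median of 0.56. Tnfaip3, which encodes the ubiquitin-editing enzyme A20, measured 54.9 and 27.6 CPM at the basal level and 291 and 212 CPM after TNF-α stimulation (2.61 ± 0.31 SE, adjusted p = 0.00789). Its partner Tnip1 (ABIN-1) measured 45.5 and 36.95 CPM at the basal level and 172 and 185 CPM after TNF-α stimulation (2.11 ± 0.11 SE, adjusted p = 0.000379), with tighter replicates. The list also held Tnfaip2 and Tnfaip8 as TNF-induced genes rather than as feedback regulators. Tnfaip2, a TNF-induced gene linked to membrane protrusions, had the largest change of the list at 40.6-fold (19.4 and 17.8 against 528 and 984 CPM, 5.34 ± 0.36 SE, adjusted p = 0.000769), and its log2 fold change without TNF-α replicate 2 was 4.84. Zfp36l1, which binds AU-rich mRNA, rose 2.28-fold (1.19 ± 0.22 SE, adjusted p = 0.0364), and was not called without basal replicate 1 (0.117), basal replicate 2 (0.0576) or TNF-α replicate 2 (0.154). Tnfaip8, a cell survival gene, rose 1.40-fold (0.49 ± 0.09 SE, adjusted p = 0.0356) and lost its call with each library left out, at adjusted p of 0.112, 0.115, 0.0504 and 0.165 without basal replicate 1, basal replicate 2, TNF-α replicate 1 and TNF-α replicate 2. Socs3 and Cyld had log2 fold changes of −0.51 and −0.08 and did not pass.

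Of 24 genes of the AP-1 family and other immediate early genes, 3 rose at 6 h, against 2.1% of all genes tested (2, 1, 2 and 1 without basal replicate 1, basal replicate 2, TNF-α replicate 1 and TNF-α replicate 2), and the median was 0.06. Junb, an AP-1 subunit, measured 71.7 and 66.8 CPM at the basal level and 247 and 283 CPM after TNF-α stimulation (1.94 ± 0.12 SE, adjusted p = 0.000589). Jun measured 251 and 271 CPM at the basal level and 249 and 275 CPM after TNF-α stimulation (0.00 ± 0.09 SE, adjusted p = 0.999), so its groups overlapped. Fos, another subunit, measured 16.3 and 27.8 CPM at the basal level and 9.86 and 11.97 CPM after TNF-α stimulation (−1.01 ± 0.34 SE, adjusted p = 0.24). Egr1, a zinc finger factor, measured 34.95 and 43.9 CPM at the basal level and 32.7 and 18.1 CPM after TNF-α stimulation (−0.63 ± 0.28 SE, adjusted p = 0.423). Neither passed, though their TNF-α libraries were the lower ones. Atf3, a stress-induced factor, rose 1.90-fold (9.98 and 9.89 against 18.05 and 19.7 CPM), and was not called without basal replicate 1 (0.0573), basal replicate 2 (0.0686) or TNF-α replicate 2 (0.0715). Btg2, an antiproliferative gene, rose 1.98-fold (34.2 and 29.3 against 62.7 and 62.8 CPM), and was not called without basal replicate 2 (0.0737), TNF-α replicate 1 (0.0525) or TNF-α replicate 2 (0.0643). Of the 20 MAP kinase and phosphatase genes, Dusp7 rose (35.6 and 35.1 against 64.5 and 58.6 CPM, 0.80 ± 0.09 SE, adjusted p = 0.00764) and Dusp14 fell (17.5 and 23.6 against 10.1 and 10.6 CPM, −0.99 ± 0.16 SE, adjusted p = 0.0238). Dusp14 was not called without basal replicate 2 (0.0681), TNF-α replicate 1 (0.105) or TNF-α replicate 2 (0.117).

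Chemokine genes carried some of the largest changes. The list of CC chemokine genes held 14, of which 7 passed the filter on low counts. Genes low at the basal level, such as Ccl20, can pass this filter through their TNF-α libraries. The median below therefore describes the genes tested, not the whole list. Of 7 CC chemokine genes tested, 4 rose, with each library left out as well, and the median log2 fold change was 5.42. Ccl2, which attracts monocytes, measured 22.6 and 11.3 CPM at the basal level and 979.7 and 1099 CPM after TNF-α stimulation (5.93 ± 0.37 SE, adjusted p = 0.000589), or 60.98-fold. Ccl7, its neighbour on chromosome 11, measured 10.9 and 5.12 CPM at the basal level and 355 and 383 CPM after TNF-α stimulation (5.51 ± 0.43 SE, adjusted p = 0.00158). Both were higher in basal replicate 1 than in basal replicate 2, and their log2 fold changes ranged from 5.53 to 6.53 and from 5.10 to 6.17 with each library left out, lowest without basal replicate 2 and highest without basal replicate 1. The neighbours thus moved alike in all 4 libraries. Ccl5, which attracts T cells, measured 0.735 and 0.469 CPM at the basal level and 22.6 and 30.5 CPM after TNF-α stimulation (5.41 ± 0.32 SE, adjusted p = 0.000459).

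Ccl20, a ligand of CCR6 on lymphocytes and dendritic cells, was near absent at the basal level, with 3 and 1 counts, and had 369 and 235 counts after TNF-α. The ratio of the pooled, depth-scaled counts was 231 (95% interval 89.7 to 850, counting error only). The fitted log2 fold change was 7.73 with all libraries and 8.38 without basal replicate 1. Per length, in TPM, Ccl2 was among the most abundant transcripts after TNF-α. Its rank by TPM among all genes moved from 2834 and 5137 to 23 and 18, and its mean TPM from 49.5 to 3039.7. Ccl17 did not pass (0.707 and 0.391 against 3.53 and 1.74 CPM, 2.24 ± 0.46 SE, adjusted p = 0.0547). Ccl3 was not tested, with 2 and 1 counts at the basal level and 32 and 1 after TNF-α, so 1 library held nearly all of its counts.

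Of 10 CXC and CX3C chemokine genes, 6 rose (5, 4, 6 and 6 without basal replicate 1, basal replicate 2, TNF-α replicate 1 and TNF-α replicate 2), with a median of 3.52. The list held 12 genes. Those low at the basal level, such as Cxcl11, can pass the filter on low counts through their TNF-α libraries. The count and median therefore describe the 10 tested, not the whole list. Cxcl10, a ligand of CXCR3 that interferon also induces, measured 23.2 and 12.5 CPM at the basal level and 1418 and 1637 CPM after TNF-α stimulation (6.41 ± 0.36 SE, adjusted p = 0.00045), or 85.2-fold. By TPM its rank moved from 3974 and 6282 to 25 and 19. Cx3cl1, the membrane-bound chemokine through which other cells signal to microglia, was already abundant and measured 139 and 147 CPM at the basal level and 776 and 816 CPM after TNF-α stimulation (2.48 ± 0.11 SE, adjusted p = 0.000239). Cxcl16 measured 7.32 and 4.50 CPM at the basal level and 65.7 and 63.5 CPM after TNF-α stimulation (3.44 ± 0.24 SE, adjusted p = 0.000992). In these 3 genes the replicates of the TNF-α group lay close to each other.

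The neutrophil chemokines were less even. Cxcl1 measured 9.42 and 6.22 CPM at the basal level and 32.95 and 122 CPM after TNF-α stimulation, so that TNF-α replicate 2 was far above TNF-α replicate 1, and both were above the basal libraries (3.30 ± 0.58 SE, adjusted p = 0.0318). Its log2 fold change was 2.08 without TNF-α replicate 2 and 3.96 without TNF-α replicate 1, and it was not called without basal replicate 1 (0.0897) or basal replicate 2 (0.155). Cxcl2 measured 3.45 and 1.45 CPM at the basal level and 22.8 and 38.1 CPM after TNF-α stimulation (3.60 ± 0.43 SE, adjusted p = 0.00802) and was called with each library left out, at log2 fold changes of 3.15 to 4.39, highest without basal replicate 1. Cxcl11, another CXCR3 ligand, measured 0.198 and 0.156 CPM at the basal level and 16.7 and 9.51 CPM after TNF-α stimulation (6.15 ± 0.75 SE, adjusted p = 0.00829), and was not called without basal replicate 2 (0.0575). Cxcl12 and Cxcl14, which astrocytes and other brain cells make without stimulation, had log2 fold changes of 0.59 and −0.26 and did not pass.

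Of 16 cytokine and colony stimulating factor genes tested, 6 rose (5, 4, 4 and 4 without basal replicate 1, basal replicate 2, TNF-α replicate 1 and TNF-α replicate 2), with a median of 1.07. The list held 28 genes. Those low at the basal level, such as Csf2 and Il23a, can pass the filter on low counts through their TNF-α libraries. The count and median therefore describe the 16 tested. Csf1, the growth factor on which microglia depend, measured 787 and 497 CPM at the basal level and 2491 and 2494 CPM after TNF-α stimulation (1.96 ± 0.20 SE, adjusted p = 0.00517). Csf2, which encodes GM-CSF, measured 0.368 and 0.196 CPM at the basal level and 4.05 and 4.09 CPM after TNF-α stimulation (3.79 ± 0.40 SE, adjusted p = 0.00866), with TNF-α replicates that were close to each other. Il23a, the p19 subunit of IL-23, measured 0.17 and 0.0782 CPM at the basal level and 8.70 and 10.7 CPM after TNF-α stimulation (6.16 ± 0.43 SE, adjusted p = 0.000938). Its basal level was 6 and 2 counts, and its log2 fold change was 6.85 without basal replicate 1. Lif, a cytokine of the IL-6 family, rose 2.56-fold (115 and 88.9 against 267 and 255 CPM, 1.35 ± 0.16 SE, adjusted p = 0.00803). Il6 measured 3.14 and 1.88 CPM at the basal level and 15.5 and 14.3 CPM after TNF-α stimulation (2.55 ± 0.40 SE, adjusted p = 0.0211) and was not called without basal replicate 2 (0.0989), TNF-α replicate 1 (0.0686) or TNF-α replicate 2 (0.0701). Tnfsf10, the death ligand TRAIL, measured 0.198 and 0.352 CPM at the basal level and 2.58 and 2.83 CPM after TNF-α stimulation (3.32 ± 0.51 SE, adjusted p = 0.02) and lost its call with each library left out, at adjusted p of 0.0969, 0.0693, 0.0566 and 0.0771 without basal replicate 1, basal replicate 2, TNF-α replicate 1 and TNF-α replicate 2. Tnf itself was not tested, with 3 and 1 counts at the basal level and 17 and 5 after TNF-α.

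**Figure D2:**
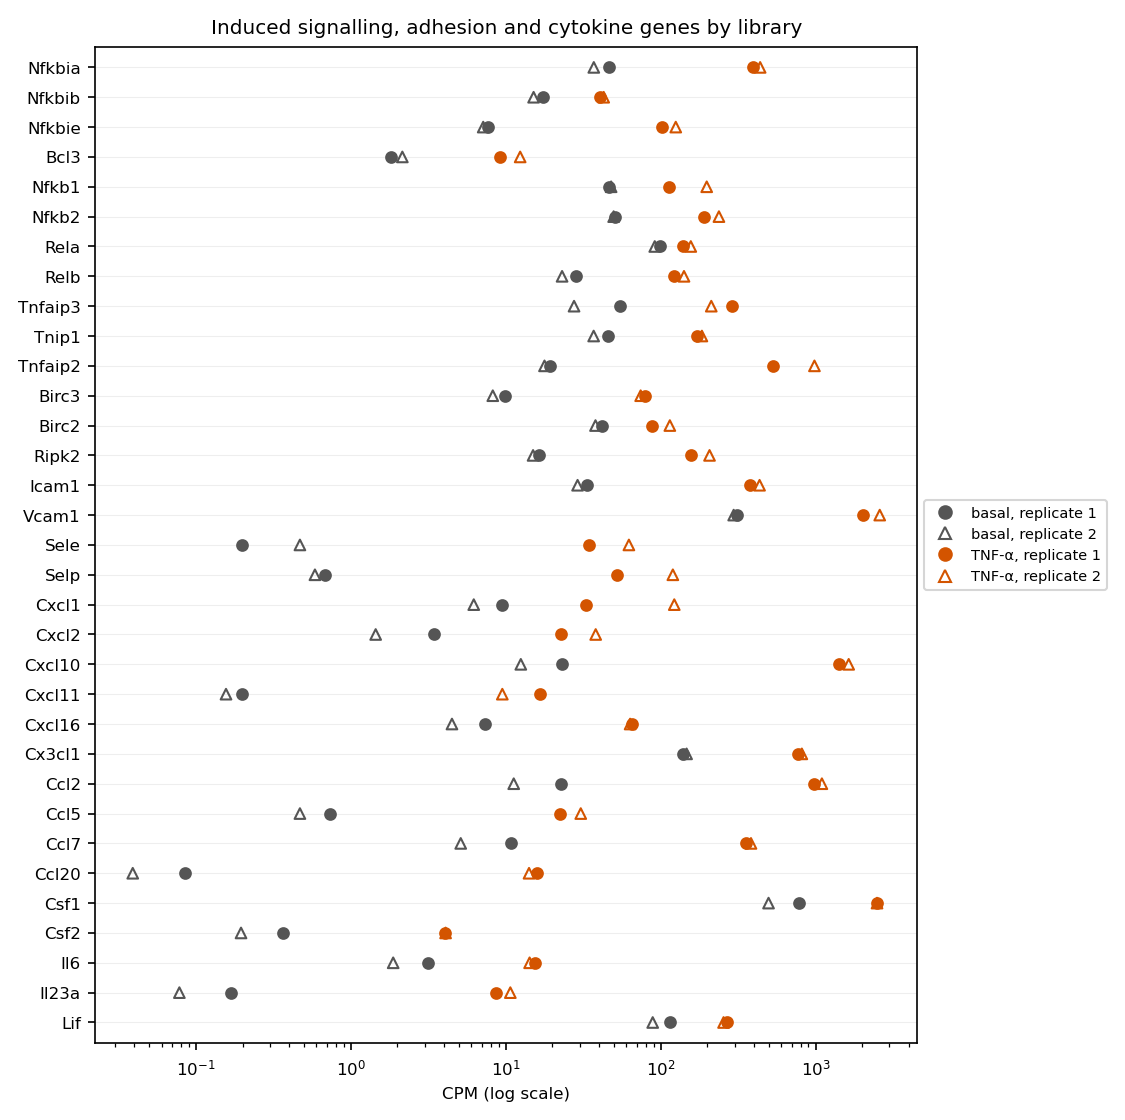
Levels of NF-κB, feedback, adhesion, chemokine and cytokine genes in each control KD library, in CPM on a log axis (grey, basal; orange, TNF-α; filled circles, replicate 1; open triangles, replicate 2). The genes drawn were picked among those called higher, so by that choice both TNF-α libraries lie to the right of both basal libraries. The TNF-α replicates of Cxcl1 lie far apart, and those of Csf1 and Csf2 nearly coincide.

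Of 13 leukocyte adhesion genes tested, 5 rose (4, 4, 6 and 4 without basal replicate 1, basal replicate 2, TNF-α replicate 1 and TNF-α replicate 2), with a median of 0.60. Vcam1, the ligand of the integrin VLA-4, measured 311 and 296 CPM at the basal level and 2023 and 2597 CPM after TNF-α stimulation (2.93 ± 0.14 SE, adjusted p = 0.000239). Icam1, the ligand of LFA-1, measured 33.3 and 29.1 CPM at the basal level and 379 and 435 CPM after TNF-α stimulation (3.71 ± 0.18 SE, adjusted p = 0.000239). Both had non-overlapping groups with tight replicates. The selectin genes Sele and Selp, known best from endothelium, rose from near absence. Sele measured 0.198 and 0.469 CPM at the basal level and 34.7 and 62.4 CPM after TNF-α stimulation (7.24 ± 0.43 SE, adjusted p = 0.000501), and its log2 fold change ranged from 6.67 to 7.90 with each library left out, lowest without basal replicate 1 and highest without basal replicate 2. Selp measured 0.679 and 0.587 CPM at the basal level and 51.95 and 119.9 CPM after TNF-α stimulation (7.06 ± 0.50 SE, adjusted p = 0.000992), and without TNF-α replicate 2 its log2 fold change was 6.35.

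The markers of endothelium were compared beside the selectins. Of 10 markers 6 were tested, and edgeR called none (0 also at an unadjusted p of 0.05, and 0 by DESeq2). The summed TPM of the 6 tested was 10.01 and 8.32 at the basal level and 9.85 and 12.98 after TNF-α. Cldn5, a defining marker, had 0 counts in all 4 libraries. Pecam1, the endothelial marker CD31, measured 0.339 and 0.117 CPM at the basal level and 0.56 and 0.301 CPM after TNF-α stimulation. Cdh5, the cadherin of endothelial junctions, measured 6.16 and 3.60 CPM at the basal level and 5.64 and 2.53 CPM after TNF-α stimulation. The part of endothelial cells in the selectin change was not tested. Cd44, the hyaluronan receptor of reactive astrocytes, rose 1.51-fold (1189 and 1199 against 1669 and 1944 CPM, 0.60 ± 0.11 SE, adjusted p = 0.0326), and was not called without basal replicate 1 (0.108), basal replicate 2 (0.113) or TNF-α replicate 2 (0.128).

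Of 23 pattern recognition genes tested, 5 rose (3, 2, 3 and 2 without basal replicate 1, basal replicate 2, TNF-α replicate 1 and TNF-α replicate 2), with a median of 0.63. Tlr2, a receptor for bacterial lipoproteins, measured 16.5 and 14.3 CPM at the basal level and 372 and 877 CPM after TNF-α stimulation (5.34 ± 0.43 SE, adjusted p = 0.00173), so TNF-α replicate 2 was above TNF-α replicate 1, and the log2 fold change was 4.61 without the former and 5.82 without the latter. Ripk2, the kinase downstream of NOD1 and NOD2, measured 16.3 and 15.02 CPM at the basal level and 157 and 207 CPM after TNF-α stimulation (3.54 ± 0.15 SE, adjusted p = 0.000239). Tlr4, the receptor of bacterial endotoxin, did not pass (6.42 and 8.37 against 5.69 and 11.01 CPM, 0.17 ± 0.30 SE, adjusted p = 0.963). The adaptor gene Myd88 rose 1.94-fold (0.96 ± 0.14 SE, adjusted p = 0.0187) but not without basal replicate 2 (0.097), TNF-α replicate 1 (0.0557) or TNF-α replicate 2 (0.0912). Ikbke, a kinase of the interferon pathway, was called at an adjusted p of 0.0334, but not without basal replicate 1 (0.124), basal replicate 2 (0.0886) or TNF-α replicate 2 (0.15). Zbp1, a sensor of nucleic acids, was called at an adjusted p of 0.0459 with a log2 fold change of 2.98, which was 4.15 without basal replicate 1, and it lost its call with each library left out, at adjusted p of 0.0583, 0.152, 0.147 and 0.122 without basal replicate 1, basal replicate 2, TNF-α replicate 1 and TNF-α replicate 2.

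Of 16 interferon regulatory factor, STAT and related genes, 5 rose (2, 3, 5 and 3 without basal replicate 1, basal replicate 2, TNF-α replicate 1 and TNF-α replicate 2), with a median of 0.81. Irf1, a transcription factor of the interferon and NF-κB responses, measured 22.7 and 18.7 CPM at the basal level and 169 and 189.6 CPM after TNF-α stimulation (3.11 ± 0.14 SE, adjusted p = 0.000239). Irf5 measured 2.80 and 3.48 CPM at the basal level and 18.7 and 25.8 CPM after TNF-α stimulation (2.82 ± 0.22 SE, adjusted p = 0.00165). Tyk2, Jak2 and Irf9, which carry the signal from interferon receptors, rose 2.07-, 1.82- and 1.67-fold. Tyk2 was not called without basal replicate 1 (0.0589) or basal replicate 2 (0.0721), Jak2 not without basal replicate 1 (0.0699), TNF-α replicate 1 (0.0614) or TNF-α replicate 2 (0.123), and Irf9 lost its call with each library left out, at adjusted p of 0.14, 0.121, 0.175 and 0.0986 without basal replicate 1, basal replicate 2, TNF-α replicate 1 and TNF-α replicate 2. Stat2, which type I interferon receptors activate, measured 21.7 and 31.99 CPM at the basal level and 56.8 and 66.8 CPM after TNF-α stimulation (1.21 ± 0.29 SE, adjusted p = 0.0907). It did not pass, although its groups did not overlap. Ifnb1, the gene of interferon-β, had no counts at the basal level and 7 and 1 counts after TNF-α.

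Of 40 interferon-induced antiviral effectors, 18 rose and 22 did not pass, with a median of 1.54. The groups did not overlap, TNF-α above basal, in 39 of the 40, against 16.2% of all genes tested. The count was 8, 7, 10 and 8 without basal replicate 1, basal replicate 2, TNF-α replicate 1 and TNF-α replicate 2, and 27 by DESeq2. Rsad2, which encodes viperin, measured 4.98 and 6.92 CPM at the basal level and 98.3 and 130.3 CPM after TNF-α stimulation (4.27 ± 0.44 SE, adjusted p = 0.00514). Parp14, an ADP-ribosyltransferase, measured 24.6 and 30.2 CPM at the basal level and 157 and 193 CPM after TNF-α stimulation (2.68 ± 0.25 SE, adjusted p = 0.00326). Its neighbour Dtx3l, a ubiquitin ligase of the interferon response, measured 26.7 and 28.3 CPM at the basal level and 105 and 129 CPM after TNF-α stimulation (2.09 ± 0.22 SE, adjusted p = 0.00585). The replicates of both genes lay close to each other in each state. Rtp4, a chaperone of receptors that interferon induces, measured 7.04 and 10.5 CPM at the basal level and 58.2 and 58.5 CPM after TNF-α stimulation (2.74 ± 0.28 SE, adjusted p = 0.00482). These 4 were called with each library left out.

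Other known markers of type I interferon lost their call without 1 or more libraries, or did not pass. With each library left out, the log2 fold change was 1.54 to 1.97 for Isg15 and 2.39 to 2.53 for Ifit1. It was 3.96 to 5.04 for Mx1, and 2.47 to 3.06 for Rtp4, which kept its call. Isg15, a ubiquitin-like modifier, measured 18.4 and 16.8 CPM at the basal level and 68.02 and 51.3 CPM after TNF-α stimulation (1.76 ± 0.29 SE, adjusted p = 0.0268), and lost its call with each library left out, at adjusted p of 0.0889, 0.129, 0.0985 and 0.0577 without basal replicate 1, basal replicate 2, TNF-α replicate 1 and TNF-α replicate 2. Ifit1 measured 34.2 and 36.7 CPM at the basal level and 202 and 186 CPM after TNF-α stimulation (2.45 ± 0.30 SE, adjusted p = 0.00887), and was not called without basal replicate 2 (0.0534). The groups of both were far apart, with replicates close to each other. Mx1, a dynamin-like GTPase, measured 0.339 and 0.156 CPM at the basal level and 6.33 and 4.21 CPM after TNF-α stimulation (4.33 ± 0.68 SE, adjusted p = 0.021). Its log2 fold change was 5.04 without basal replicate 1, and was not called without basal replicate 1 (0.0671), basal replicate 2 (0.106) or TNF-α replicate 1 (0.0686). Usp18, which removes ISG15 from proteins, did not pass (16.1 and 19.3 against 46.7 and 42.1 CPM, 1.33 ± 0.35 SE, adjusted p = 0.129). Ifit3 did not pass either (124 and 236 against 310.5 and 406 CPM, 0.99 ± 0.37 SE, adjusted p = 0.302).

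Guanylate-binding proteins (GBP) and immunity-related GTPases, which attack vacuoles that hold pathogens, were tested in 13 genes. Of these, 12 rose, against 2.1% of all genes tested, and the other, Igtp, did not pass (1.39 ± 0.28 SE, adjusted p = 0.0538). The median was 2.96. The count was 9, 7, 11 and 7 without basal replicate 1, basal replicate 2, TNF-α replicate 1 and TNF-α replicate 2. Gbp5, which also promotes inflammasome assembly, measured 3.56 and 5.71 CPM at the basal level and 242 and 558 CPM after TNF-α stimulation (6.45 ± 0.48 SE, adjusted p = 0.00128). Gbp2 measured 20.1 and 41.9 CPM at the basal level and 235 and 605 CPM after TNF-α stimulation (3.76 ± 0.52 SE, adjusted p = 0.0127). Gbp6 measured 24.4 and 33.6 CPM at the basal level and 206 and 504 CPM after TNF-α stimulation (3.61 ± 0.42 SE, adjusted p = 0.00764). In these 3, TNF-α replicate 2 was above TNF-α replicate 1, and the log2 fold changes were 5.74, 2.94 and 2.84 without the former. That of Gbp2 was 4.39 without basal replicate 2. Gbp4 was even, with 0.877 and 1.29 CPM at the basal level and 23.1 and 22.98 CPM after TNF-α stimulation (4.43 ± 0.40 SE, adjusted p = 0.00309). Members of this family resemble each other, and RSEM divides reads that match several of them, so single values are uncertain.

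Of 18 genes of MHC class I and antigen processing, 11 rose (6, 9, 10 and 6 without basal replicate 1, basal replicate 2, TNF-α replicate 1 and TNF-α replicate 2), with a median of 1.25, and in all 18 the groups did not overlap, TNF-α above basal, against 16.2% of all genes tested. Tap1, a subunit of the transporter that carries peptides to MHC class I, rose 2.72-fold (36.3 and 35.9 against 89.9 and 106 CPM, 1.44 ± 0.17 SE, adjusted p = 0.00814). Tap2, its partner, rose 2.61-fold (65.6 and 79.6 against 161 and 218 CPM, 1.38 ± 0.17 SE, adjusted p = 0.00803). Psmb10, a subunit of the immunoproteasome, measured 35.9 and 35.7 CPM at the basal level and 80.3 and 100.1 CPM after TNF-α stimulation (1.33 ± 0.16 SE, adjusted p = 0.00807). The heavy chain gene H2-K1 measured 107 and 140.4 against 255 and 323 CPM (1.23 ± 0.17 SE, adjusted p = 0.0127), and was not called without TNF-α replicate 2 (0.0561). H2-D1, another heavy chain gene, measured 128 and 145 against 226 and 259 CPM (0.83 ± 0.12 SE, adjusted p = 0.0141), and was not called without basal replicate 1 (0.0583) or TNF-α replicate 2 (0.0681). B2m, the light chain, did not pass (191 and 219 against 247 and 289 CPM, 0.39 ± 0.14 SE, adjusted p = 0.316). Cd274, which encodes the inhibitory ligand PD-L1, measured 11.3 and 7.63 CPM at the basal level and 99.7 and 85.4 CPM after TNF-α stimulation (3.28 ± 0.39 SE, adjusted p = 0.00764). The H2 genes are near-identical in parts, with the same limit on single values.

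**Figure D3:**
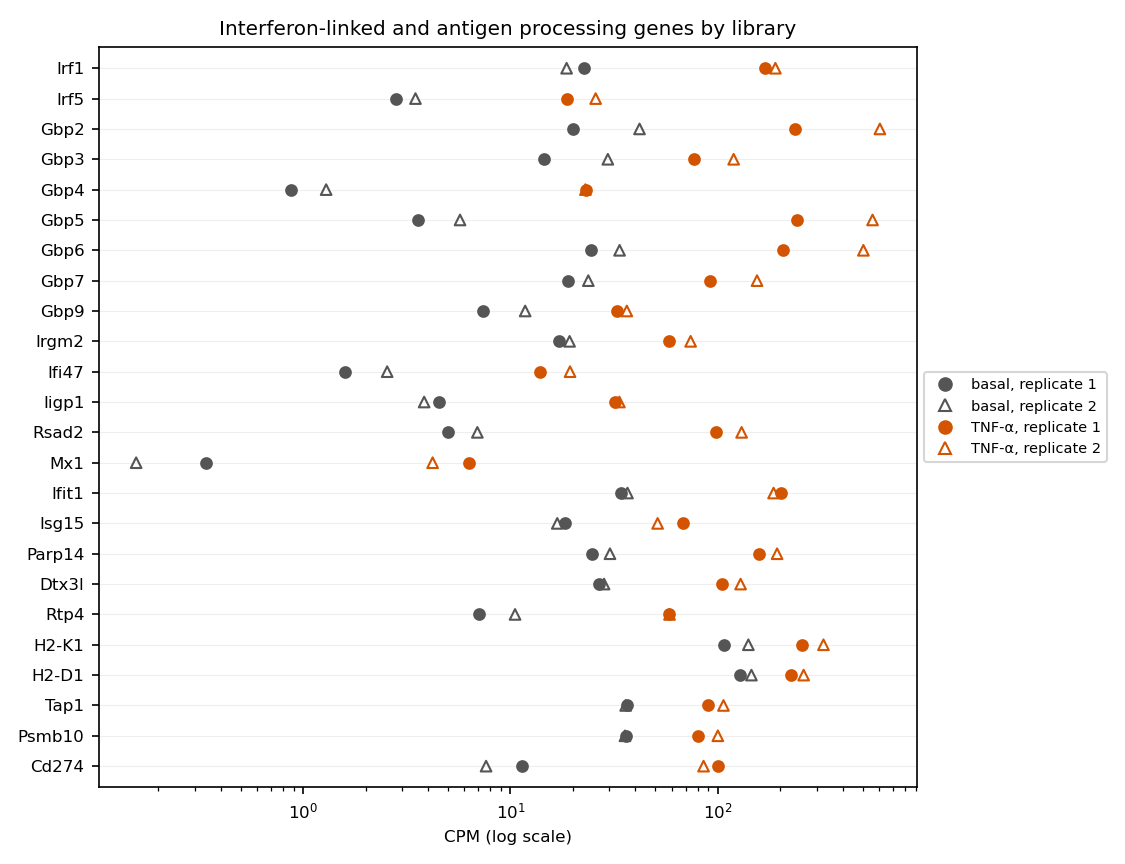
Levels of interferon-linked, GTPase and antigen processing genes in each control KD library, in CPM on a log axis: grey for basal, orange for TNF-α, filled circles for replicate 1 and open triangles for replicate 2. Only genes called higher are drawn, so both TNF-α libraries lie to the right of both basal libraries by that choice. Gbp2, Gbp5 and Gbp6 have TNF-α replicates that lie apart.

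Several acute phase genes and C3 differed widely between the TNF-α replicates. C3, the central complement protein and a marker of reactive astrocytes, measured 62.8 and 51.9 CPM at the basal level and 132 and 366 CPM after TNF-α stimulation (2.12 ± 0.42 SE, adjusted p = 0.0517), just outside the threshold. DESeq2 called it (adjusted p = 3.52e-07). Lcn2, a secreted iron-carrier protein, measured 38.6 and 29.4 CPM at the basal level and 55.3 and 156 CPM after TNF-α stimulation (1.63 ± 0.54 SE, adjusted p = 0.242). Ptx3, a long pentraxin, measured 90.5 and 175 CPM at the basal level and 327 and 939 CPM after TNF-α stimulation (2.26 ± 0.49 SE, adjusted p = 0.0687). Steap4, a metalloreductase, measured 3.53 and 6.41 CPM at the basal level and 15.2 and 99.7 CPM after TNF-α stimulation (3.54 ± 0.88 SE, adjusted p = 0.104). In these 4 genes TNF-α replicate 2 was the highest library, which was not so of every gene of the list (Serpina3n measured 81.4 and 72.4 against 87.3 and 82.9 CPM). Of 9 acute phase genes tested edgeR called none (6 were higher at an unadjusted p of 0.05, and 3 by DESeq2), with a median of 1.44. With the replicate number as a block it called 3 higher. Of 12 complement genes edgeR also called none (2 higher at an unadjusted p of 0.05, and 1 by DESeq2), with a median of 0.24, and it called 1 without TNF-α replicate 1 and 1 without TNF-α replicate 2.

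Of 12 genes for prostaglandin and nitric oxide synthesis, 4 rose (2, 2, 4 and 1 without basal replicate 1, basal replicate 2, TNF-α replicate 1 and TNF-α replicate 2), with a median of 0.44. Ptgs2, which encodes cyclooxygenase 2, measured 168 and 112 CPM at the basal level and 330.4 and 338 CPM after TNF-α stimulation (1.26 ± 0.20 SE, adjusted p = 0.021), and was not called without TNF-α replicate 1 (0.0618) or TNF-α replicate 2 (0.0828). Nos2, the inducible nitric oxide synthase, measured 0.113 and 0.0782 CPM at the basal level and 3.27 and 14.7 CPM after TNF-α stimulation (6.43 ± 0.89 SE, adjusted p = 0.0133). Its basal level was 4 and 2 counts. Its TNF-α libraries differed widely, its log2 fold change was 5.01 without TNF-α replicate 2 and 7.15 without TNF-α replicate 1, and it was not called without basal replicate 1 (0.0699) or basal replicate 2 (0.0858). Gch1, which makes the cofactor of nitric oxide synthases, measured 8.43 and 4.18 against 24.2 and 30.3 CPM (2.09 ± 0.30 SE, adjusted p = 0.014). Its log2 fold change was 2.70 without basal replicate 1, and it was not called without TNF-α replicate 2 (0.0627). Ptges, a prostaglandin E synthase, measured 7.21 and 8.29 against 15.4 and 23.5 CPM (1.32 ± 0.22 SE, adjusted p = 0.0268), and was not called without basal replicate 1 (0.108), basal replicate 2 (0.09) or TNF-α replicate 2 (0.0939).

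Acod1, which makes itaconate in activated macrophages, had 2 and 0 counts at the basal level and 99 and 72 after TNF-α. The ratio of the pooled, depth-scaled counts was 131 (95% interval 35.7 to 1090, counting error only). Its adjusted p was 0.00519, and its fitted log2 fold change was 6.83 with all libraries and 9.51 without basal replicate 1, which left a single basal library with 0 counts. Of 12 microglial and macrophage markers tested edgeR called none (0 also at an unadjusted p of 0.05, and 0 by DESeq2). Ptprc, the pan-leukocyte marker CD45, measured 0.735 and 0.0391 CPM at the basal level and 0.646 and 0.0602 CPM after TNF-α stimulation. Csf1r, the receptor of CSF1 on macrophages, measured 1.56 and 0.313 CPM at the basal level and 2.71 and 0.481 CPM after TNF-α stimulation. The part of macrophages in the Acod1 change was not tested.

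Of 27 receptor genes for other cytokines tested, 5 rose (4, 2, 5 and 4 without basal replicate 1, basal replicate 2, TNF-α replicate 1 and TNF-α replicate 2), with a median of 0.44. Ifngr2, a chain of the interferon-γ receptor, measured 34.5 and 31.4 CPM at the basal level and 78.4 and 88.7 CPM after TNF-α stimulation (1.34 ± 0.10 SE, adjusted p = 0.00148). Il15ra, which presents IL-15 to neighbouring cells, measured 1.92 and 2.35 CPM at the basal level and 9.99 and 12.1 CPM after TNF-α stimulation (2.37 ± 0.23 SE, adjusted p = 0.00431). Ifngr1, the other chain of the interferon-γ receptor, and Il1rap, the co-receptor for IL-1, rose 1.68- and 2.03-fold. Ifngr1 was not called without basal replicate 2 (0.0593), and Il1rap not without basal replicate 2 (0.0643). Ifnar1, a chain of the type I interferon receptor, rose 1.35-fold and lost its call with each library left out, at adjusted p of 0.113, 0.114, 0.0943 and 0.167 without basal replicate 1, basal replicate 2, TNF-α replicate 1 and TNF-α replicate 2.

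Of 23 matrix protease and inhibitor genes, 5 rose (3, 3, 5 and 2 without basal replicate 1, basal replicate 2, TNF-α replicate 1 and TNF-α replicate 2) and 1 fell, with a median of 0.49. Plau, the urokinase plasminogen activator, measured 11.2 and 11.8 CPM at the basal level and 60.5 and 51.2 CPM after TNF-α stimulation (2.28 ± 0.15 SE, adjusted p = 0.000769). Adamts9, a metalloproteinase that cleaves proteoglycans, measured 45.8 and 46.97 CPM at the basal level and 93.5 and 103 CPM after TNF-α stimulation (1.08 ± 0.09 SE, adjusted p = 0.00181). Both were called with each library left out. Mmp9, Adamts4 and Adamts5 were called at adjusted p of 0.0169, 0.0246 and 0.0392. The log2 fold change of Mmp9 was 3.13, and 3.81 without basal replicate 1. Mmp9 was not called without basal replicate 1 (0.0517), basal replicate 2 (0.0964) or TNF-α replicate 2 (0.0882), Adamts4 not without basal replicate 1 (0.0622), basal replicate 2 (0.114) or TNF-α replicate 2 (0.1), and Adamts5 not without basal replicate 2 (0.129) or TNF-α replicate 2 (0.16). Timp3, an inhibitor of these proteases and of the enzyme that sheds TNF-α, was the gene that fell. It measured 1428 and 1543 CPM at the basal level and 905 and 899.7 CPM after TNF-α stimulation (−0.72 ± 0.09 SE, adjusted p = 0.0107), and was not called without basal replicate 2 (0.0545) or TNF-α replicate 2 (0.0627). The growth factor gene Pdgfb was the 1 called of 34 growth factor genes, against 2.1% of all genes tested called higher, and measured 37.9 and 36.99 CPM at the basal level and 131 and 233 CPM after TNF-α stimulation (2.28 ± 0.27 SE, adjusted p = 0.00764).

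Lists long used to describe reactive astrocytes were read against the 2.1% of all genes tested called higher and the 0.528% called lower. Of 13 pan-reactive genes, 2 rose (Cxcl10 and Cd44), with a median of 0.50 (1, 1, 3 and 1 without basal replicate 1, basal replicate 2, TNF-α replicate 1 and TNF-α replicate 2). Of 12 genes of the type induced by bacterial endotoxin, 4 rose (H2-D1, Iigp1, Gbp2 and Psmb8), with a median of 0.76 (2, 3, 5 and 3, in the same order). Of 11 genes of the type induced by ischaemia, Ptgs2 rose and Emp1 fell, with a median of 0.08 (1, 1, 1 and 0 higher in the same order, and 0 lower in each). DESeq2 called 3, 5 and 3 genes of these lists higher and 0, 1 and 1 lower. Emp1, a membrane protein, measured 539 and 611 CPM at the basal level and 362 and 304 CPM after TNF-α stimulation (−0.79 ± 0.14 SE, adjusted p = 0.034). Iigp1, an immunity-related GTPase, measured 4.52 and 3.83 CPM at the basal level and 31.9 and 33.5 CPM after TNF-α stimulation (2.96 ± 0.39 SE, adjusted p = 0.0108), and was not called without basal replicate 2 (0.0681). Psmb8, an immunoproteasome subunit, measured 14.9 and 21.2 against 46.4 and 68.9 CPM (1.67 ± 0.25 SE, adjusted p = 0.0187), and was not called without basal replicate 1 (0.0647) or TNF-α replicate 2 (0.0681). Vim and Serpina3n, widely used markers, had log2 fold changes of −0.08 and 0.15 and did not pass.

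None of the genes of astrocyte identity passed the test. Of 29 tested edgeR called none in either direction (3 were lower at an unadjusted p of 0.05, and 2 by DESeq2), and the median was −0.08. Fitted with the replicate number as a block, it called 1 lower. Without basal replicate 1, 1 was called lower, and without a filter on low counts 2 were called higher and 6 lower. Slc1a3, a glutamate transporter, measured 558 and 885 CPM at the basal level and 545 and 968 CPM after TNF-α stimulation. Slc1a2, the other astrocyte glutamate transporter, measured 100.3 and 195 CPM at the basal level and 137 and 259 CPM after TNF-α stimulation. Glul, glutamine synthetase, measured 313 and 501 CPM at the basal level and 283 and 458 CPM after TNF-α stimulation. In these 3 genes the groups overlapped. Fgfr3, a growth factor receptor, had the lowest log2 fold change of the list (94.4 and 161 against 53.03 and 83.8 CPM, −0.90 ± 0.28 SE, adjusted p = 0.21). Sox9, a transcription factor of astrocytes, was also below 0 (266 and 410.2 against 168 and 232 CPM, −0.76 ± 0.22 SE, adjusted p = 0.175). DESeq2 called both lower, at adjusted p of 0.0324 and 0.0302.

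Gstm1, the gene that the study knocked down in the other arm, measured 231 and 377 CPM at the basal level and 209 and 391 CPM after TNF-α stimulation in these control KD cells (−0.02 ± 0.31 SE, adjusted p = 0.998). Of 16 glutathione S-transferase genes edgeR called none (0 also at an unadjusted p of 0.05, and 0 by DESeq2), with a median of −0.06. Of 22 NRF2 target and redox genes edgeR called none either (3 higher at an unadjusted p of 0.05, and 1 by DESeq2). Sod2, the mitochondrial superoxide dismutase and a known NF-κB target, measured 96.5 and 106 CPM at the basal level and 115 and 156 CPM after TNF-α stimulation (0.42 ± 0.15 SE, adjusted p = 0.29). Housekeeping, cytosolic ribosomal protein, cell cycle, cholesterol and unfolded protein response genes had medians between −0.10 and 0.04, and edgeR called none of the 12, 18, 26, 22 and 20 tested (1, 0, 0, 0 and 0 at an unadjusted p of 0.05, and 0 by DESeq2 in each). In the glycolysis list edgeR called none of 15 (1 higher and 3 lower at an unadjusted p of 0.05, and 1 each by DESeq2), with a median of −0.11, and it called 1 lower without basal replicate 1.

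**Figure D4:**
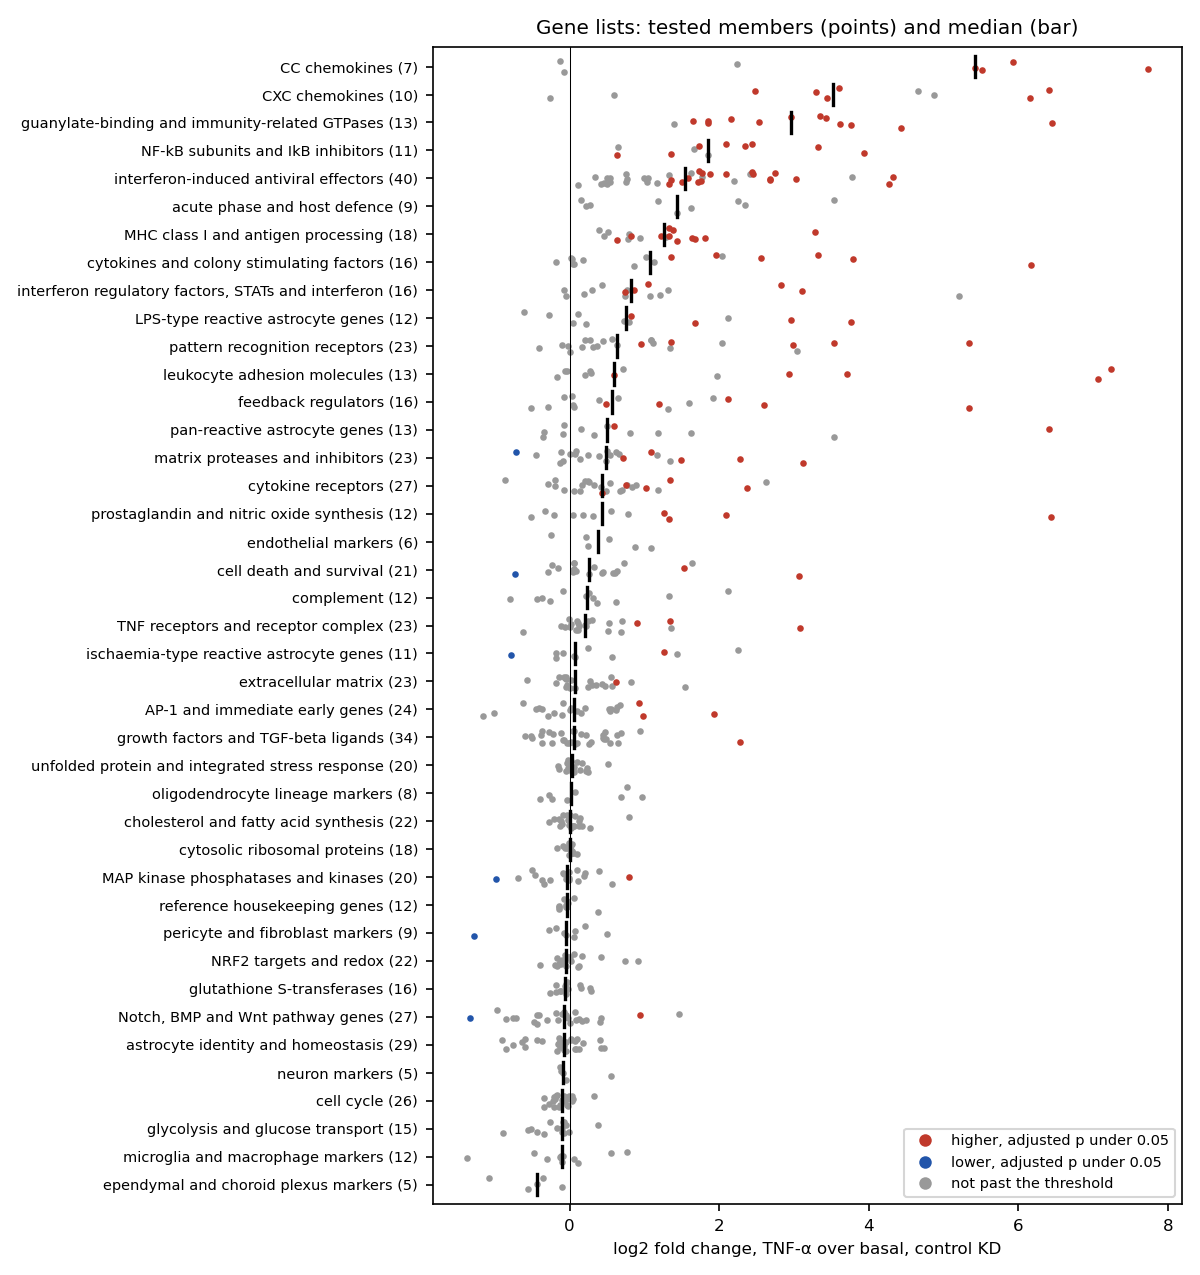
Log2 fold change of TNF-α over basal in control KD for each tested member of 41 gene lists (points: red, past the threshold as higher; blue, as lower; grey, not past it) with the list median as a bar and the number tested in brackets. The medians cover tested members only, and genes low at the basal level can pass the filter through their TNF-α libraries. The CC chemokine list, with 7 of its 14 genes tested, has the highest such median, 5.42 (4 of 7 called). The astrocyte identity list lies at −0.08 with no member called.

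The repressed genes were fewer and their changes smaller. Hey1, a repressor in the Notch pathway, had the smallest p-value among the repressed genes and measured 84.9 and 98.7 CPM at the basal level and 37.4 and 35.5 CPM after TNF-α stimulation (−1.33 ± 0.11 SE, adjusted p = 0.00229), or 2.51-fold lower. Vsir, which encodes the immune checkpoint protein VISTA, measured 143 and 139.8 CPM at the basal level and 71.3 and 70.3 CPM after TNF-α stimulation (−0.998 ± 0.09 SE, adjusted p = 0.00241), with replicates that were nearly equal in both states. Ephb3, a receptor of ephrins, measured 65.6 and 80.4 CPM at the basal level and 26.4 and 27.6 CPM after TNF-α stimulation (−1.43 ± 0.13 SE, adjusted p = 0.00353). Wscd2, whose product modifies membrane glycans, fell 6.30-fold (20.2 and 34.3 against 3.70 and 4.99 CPM, −2.65 ± 0.28 SE, adjusted p = 0.00517).

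Mtss1, which bends membranes at the cell edge, measured 140.1 and 177 CPM at the basal level and 67.4 and 75.1 CPM after TNF-α stimulation (−1.16 ± 0.13 SE, adjusted p = 0.0071). Kif26b, a kinesin-like protein, measured 44.00 and 57.7 CPM at the basal level and 14.4 and 16.7 CPM after TNF-α stimulation (−1.71 ± 0.20 SE, adjusted p = 0.00764). Adrb1, the β1-adrenergic receptor, measured 36.7 and 50.3 CPM at the basal level and 14.1 and 17.6 CPM after TNF-α stimulation (−1.46 ± 0.19 SE, adjusted p = 0.0108). With Hey1, Vsir, Ephb3 and Wscd2, these 3 make up the 7 repressed genes called with each of the 4 libraries left out.

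Other repressed genes lost their call without 1 or more libraries. Nog, which encodes the BMP antagonist noggin, measured 101 and 94.1 CPM at the basal level and 56.9 and 49.5 CPM after TNF-α stimulation (−0.87 ± 0.11 SE, adjusted p = 0.0108), and was not called without TNF-α replicate 2 (0.0686). Pdgfc, a growth factor, measured 71.8 and 75.6 against 43.9 and 48.9 CPM (−0.67 ± 0.09 SE, adjusted p = 0.0105), and was not called without basal replicate 2 (0.0532). Bcl2, an inhibitor of apoptosis, measured 59.6 and 70.7 against 36.2 and 42.2 CPM (−0.73 ± 0.13 SE, adjusted p = 0.0293), and was not called without basal replicate 2 (0.114), TNF-α replicate 1 (0.126) or TNF-α replicate 2 (0.0694). Pdgfrb, the PDGF receptor β, measured 50.96 and 77.6 against 22.6 and 30.5 CPM (−1.28 ± 0.22 SE, adjusted p = 0.0278), and was not called without basal replicate 2 (0.0651), TNF-α replicate 1 (0.114) or TNF-α replicate 2 (0.0586). It is also a marker of pericytes, and of the 9 markers of pericytes and fibroblasts tested it was the 1 called. Oxtr, the oxytocin receptor, measured 3.37 and 5.36 against 1.03 and 0.602 CPM (−2.37 ± 0.38 SE, adjusted p = 0.0242), and was not called without basal replicate 2 (0.0861), TNF-α replicate 1 (0.053) or TNF-α replicate 2 (0.129).

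In a list of Notch, BMP and Wnt genes, Hey1 was the 1 gene that fell and Fzd1 the 1 that rose among the 27 tested. This stands against 0.528% lower and 2.1% higher of all genes tested, and the median was −0.08. The list does not cover these pathways in full and holds neither Nog nor Bmp2. With the replicate number as a block edgeR called 4 of its genes lower. The number that fell was 4, 1, 1 and 1 without basal replicate 1, basal replicate 2, TNF-α replicate 1 and TNF-α replicate 2. Notch1, a Notch receptor, measured 226 and 343 CPM at the basal level and 161 and 185 CPM after TNF-α stimulation (−0.72 ± 0.19 SE, adjusted p = 0.124). Smad9, which carries BMP signals, measured 27.3 and 41.8 CPM at the basal level and 15.4 and 19.8 CPM after TNF-α stimulation (−0.97 ± 0.23 SE, adjusted p = 0.0907). Id2, a BMP target, measured 124 and 199.7 CPM at the basal level and 74.3 and 118 CPM after TNF-α stimulation (−0.75 ± 0.29 SE, adjusted p = 0.335). None of these 3 passed, and in each the TNF-α libraries were below the basal ones, as in 18.3% of all genes tested. Hes1, the other classical Notch target, measured 40.7 and 39.3 CPM at the basal level and 32.7 and 26.5 CPM after TNF-α stimulation (−0.43 ± 0.18 SE, adjusted p = 0.39). Fzd1, a Wnt receptor, measured 62.98 and 67.97 CPM at the basal level and 111 and 141 CPM after TNF-α stimulation (0.94 ± 0.12 SE, adjusted p = 0.0109), and was not called without basal replicate 1 (0.0506).

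**Figure D5:**
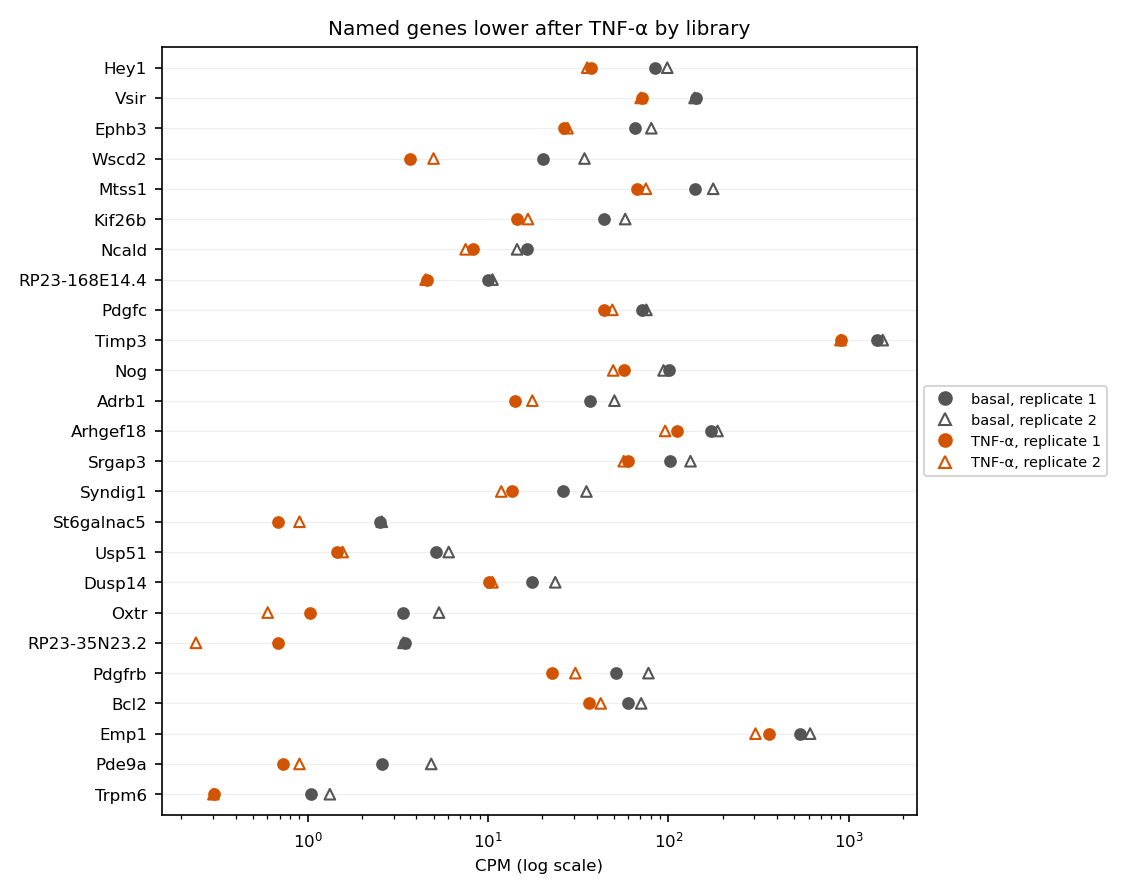
Levels of the named genes lower after TNF-α in each control KD library, in CPM on a log axis (grey, basal; orange, TNF-α; filled circles, replicate 1; open triangles, replicate 2). Only genes called lower are drawn, so both TNF-α libraries lie to the left of both basal libraries by that choice. Most differences are smaller than those of the induced genes.

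Among 21 genes of cell death and survival, Casp4 and Bid rose and Bcl2 fell, against 2.1% higher and 0.528% lower of all genes tested, with a median of 0.26. Casp4, the inflammatory caspase-11 of the mouse, measured 1.33 and 1.45 CPM at the basal level and 8.62 and 14.7 CPM after TNF-α stimulation (3.07 ± 0.36 SE, adjusted p = 0.00764). Bid, which links death receptors to mitochondria, measured 20.6 and 14.7 CPM at the basal level and 51.6 and 50.1 CPM after TNF-α stimulation (1.53 ± 0.19 SE, adjusted p = 0.0101). The count that rose was 3, 2, 2 and 2 without basal replicate 1, basal replicate 2, TNF-α replicate 1 and TNF-α replicate 2. The mitochondrial survival gene Bcl2l1 and the caspase-8 inhibitor gene Cflar had log2 fold changes of 0.06 and 0.44 and did not pass.

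Some genes outside these lists were named by the size or p-value of their change. Stx11, a syntaxin of secretory granules in immune cells, measured 8.51 and 6.65 CPM at the basal level and 52.5 and 63.4 CPM after TNF-α stimulation (2.93 ± 0.17 SE, adjusted p = 0.00045), and was called with each library left out. Gpr84, a receptor for medium-chain fatty acids, had 2 and 0 counts at the basal level and 22 and 20 after TNF-α, a ratio of 32.1 (95% interval 8.36 to 274, counting error only). Its fitted log2 fold change was 4.83 with all libraries and 7.504 without basal replicate 1, and it lost its call with each library left out, at adjusted p of 0.0611, 0.111, 0.0739 and 0.121 without basal replicate 1, basal replicate 2, TNF-α replicate 1 and TNF-α replicate 2. Among the repressed genes, Srgap3, which regulates Rac in cell protrusions, measured 103 and 133 CPM at the basal level and 59.96 and 56.6 CPM after TNF-α stimulation (−1.01 ± 0.13 SE, adjusted p = 0.0108), and was not called without TNF-α replicate 2 (0.0715). Ncald, a neuronal calcium sensor, measured 16.4 and 14.5 CPM at the basal level and 8.31 and 7.52 CPM after TNF-α stimulation (−0.96 ± 0.12 SE, adjusted p = 0.00904), and was not called without TNF-α replicate 2 (0.0627). Syndig1, a synapse protein, measured 26.2 and 35.2 CPM at the basal level and 13.6 and 11.9 CPM after TNF-α stimulation (−1.26 ± 0.17 SE, adjusted p = 0.0115), and was not called without TNF-α replicate 2 (0.0771). Trpm6, a magnesium channel, measured 1.05 and 1.33 CPM at the basal level and 0.302 and 0.301 CPM after TNF-α stimulation (−1.95 ± 0.36 SE, adjusted p = 0.0376), and lost its call with each library left out, at adjusted p of 0.0699, 0.152, 0.175 and 0.185 without basal replicate 1, basal replicate 2, TNF-α replicate 1 and TNF-α replicate 2.

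The markers of other neural cells were set beside repressed genes such as Ncald and Syndig1. Of 8 oligodendrocyte lineage, 5 neuron and 5 ependymal markers tested, edgeR called none (at an unadjusted p of 0.05, 1 oligodendrocyte lineage marker was higher and 2 were lower, with 0 of the others, and DESeq2 called 0 in each list). The summed TPM of the oligodendrocyte lineage markers was 574 and 678.5 at the basal level and 484 and 545 after TNF-α. That of the neuron markers was 298 and 293 at the basal level and 282.5 and 281.5 after TNF-α, and that of the ependymal markers was 84.0 and 139.8 and then 70.3 and 90.3. The part of such cells in the repressed genes was not tested. Of 23 extracellular matrix genes tested, Vcan, the proteoglycan versican, was the 1 called, against 2.1% of all genes tested called higher (30.9 and 30.3 against 49.1 and 45.2 CPM, 0.62 ± 0.11 SE, adjusted p = 0.0325), and it lost its call with each library left out, at adjusted p of 0.0982, 0.141, 0.145 and 0.0939 without basal replicate 1, basal replicate 2, TNF-α replicate 1 and TNF-α replicate 2.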

How the data were processed

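RNA-seq was made in 8 libraries of primary mouse astrocytes, 2 replicates in each of 4 groups, with a directional kit. The authors aligned reads with STAR 2.5.4b and estimated abundance per gene with RSEM 1.3.0, per the labels (GRCm38/mm10). The authors deposited expected counts, which RSEM estimates per gene and which need not be whole, beside TPM and effective lengths, for 54146 genes in each library. Whether counting used strand is not given in the sources used here, so reads of overlapping and antisense genes may not be told apart. RSEM divides reads shared by near-identical genes. FPKM values and transcript lists of the same files were not used here.

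Expected counts were rounded and tested with edgeR 4.0.16 (R 4.3.3): TMM scaling, filterByExpr with a minimum of 10 counts, 1 coefficient per group over all 8 libraries, the quasi-likelihood test of TNF-α against basal within control KD, and Benjamini-Hochberg adjustment over all 15332 genes tested, at a threshold of 0.05. Log2 fold changes are TNF-α minus basal, with the standard error from the test statistic. CPM is the rounded count divided by the TMM-scaled library size, as edgeR gives it. TPM sums and ranks came from the deposited TPM values. Effective lengths as deposited by the authors, in bases, served as offsets in an alternative. The typical coefficient of variation between replicates was 15.4%. A floor of 3 counts corresponded to 0.0848 to 0.181 CPM, and intervals on count ratios cover counting error only. Genes with basal libraries at or under the floor were given as count ratios. Positions are of GENCODE M21 (GRCm38), and promoters of RefSeq (GRCm38.p6). The procedure was also run on simulated counts, with the outcome not given here. These were drawn independently for each library, while deviations of same-numbered basal and TNF-α control KD libraries correlated at 0.731. The simulation therefore does not cover that structure.

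The gene lists and named genes were chosen with earlier results of these data known. Named genes were members of the 41 lists, the 15 called genes with the smallest p-values in each direction, the 10 with the largest fold changes whose lower group was above the floor, and 5 from the floor. Alternatives were DESeq2 1.42.0, the newer quasi-likelihood method, the control KD libraries alone, other scaling, other filters, effective-length offsets, the replicate number as a block, and each control KD library left out. Some results are not reported here.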

Additional observations from a re-analysis of the deposited data

How the results depend on the processing

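The count of induced genes, 322 in the edgeR test on 8 libraries, stayed within 1.5 times with DESeq2 on the 4 control KD libraries (388), the newer quasi-likelihood method (341), DESeq2 size factors (327), library size alone (337), at least 10 counts in every library (291) and effective-length offsets (310). The count of repressed genes, 81, was 75, 81, 75, 107, 68 and 71 in the same order. DESeq2 on 8 libraries called 549 induced and 193 repressed genes, of which 319 and 81 were among the 322 and 81. Without a filter on low counts edgeR called 756 and 499, of which 320 and 81 were shared. On the 4 control KD libraries alone it called 70 and 2. Leaving out each control KD library gave 164 to 285 induced and 15 to 97 repressed genes. Causes of these differences were not tested. No named gene that was called here or under an alternative had the opposite sign there. Of 696 named genes 142 were called, and 36 of these were called in every setting.

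With the replicate number as a block edgeR called 652 induced and 336 repressed genes, including all 322 and 81. Of the 29 astrocyte identity genes it called 1 lower, of the Notch, BMP and Wnt genes 4 lower, and of the acute phase genes 3 higher. The labels do not say that a number marks a shared culture or day. Deviations from the group means correlated at 0.731 between same-numbered basal and TNF-α control KD libraries over 15332 genes, with 2 replicates in each group, and between 0.248 and 0.51 for the other pairs of groups.

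The rare cytokine genes Tnf and Ccl3 did not pass the filter on low counts over the 8 libraries and have no test here.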

Other observations

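Induced genes lay near each other in several parts of the genome, by a rule chosen after their values were seen (at least 3 called genes, each within 200 kb of the next). There were 12 such clusters of induced genes and 0 of repressed genes. On chromosome 5, from 105077630 to 105613018 (GRCm38), 7 of 8 tested genes were called higher: Gbp9, Gbp4, Gbp10, Gbp6, Gbp11, Lrrc8b and Lrrc8c, the last pair being subunits of volume-regulated anion channels. On chromosome 3, from 142493978 to 142638008, 4 of 5 were called, namely Gbp5, Gbp7, Gbp3 and Gbp2. On chromosome 17, from 35262730 to 35443773, 6 of 6 were called, all in the MHC class I region with H2-D1 and the H2-Q genes. On chromosome 16, from 35832874 to 35972605, the called genes Parp14, Dtx3l and Parp9 were 3 of 3. The cluster around Cxcl10 and Cxcl11 on chromosome 5 and the one around Iigp1 on chromosome 18 each had 4 of 5 called, and the one around Tnfaip2 on chromosome 12 had 3 of 4. In the remaining clusters the called genes were fewer of those tested in the span: 6 of 10 around Irgm1 on chromosome 11, 5 of 25 around H2-K1 on chromosome 17, 4 of 11 around Icam1 on chromosome 9, 4 of 10 around the Slfn genes and 4 of 8 around Irf1, both also on chromosome 11. Many of these neighbours are near-identical copies between which reads may have been divided.

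An AU-rich element made of 2 copies of ATTTA that share 1 base, known from the mRNAs of short-lived cytokines, was counted in the annotated 3′ untranslated regions. It was present in 24 of 310 induced protein-coding genes (7.74%), in 7 of the 53 that rose at least 8-fold (13.2%), in 9 of 79 repressed genes (11.4%), and in 903 of 13624 tested genes (6.63%), whose median lengths were 1445, 1105, 1729 and 1220 bases. Csf2 held 5 such elements, and Birc3 and Cxcl2 held 4 each. These shares were not tested.

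Rare inflammatory genes below the filter had low counts. Il1b, the gene of interleukin-1β, had 0 and 0 counts in the basal libraries and 7 and 0 after TNF-α. Csf3, which encodes G-CSF, had 1 and 1 counts and then 5 and 18. Cxcl3, a neutrophil chemokine, had 4 and 1 counts and then 17 and 7.

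The induced gene Psd4 had a deposited effective length of 5128 bases in the basal libraries and 691 after TNF-α, a ratio of 0.135, which was the lowest of the called genes and was noticed after the values were seen.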
